A study of Mus musculus with 16 samples.

Results

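The 8 genes described here encode enzymes and transporters of renal glucose production, of fructose use and of ammonia formation: Pck1, G6pc, Fbp1, Pcx, Slc37a4, Slc2a2, Khk and Glud1. They were chosen by name from the pathway, as the rows of the deposited count table whose Ensembl ID carries one of these symbols in GENCODE M21, and they are 8 of the 55414 genes counted. All 8 had enough counts to be tested, among 16126 genes tested.

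The tissue was kidney cortex of male wild-type C57BL/6J mice, profiled by RNA-seq of polyadenylated RNA. Sedentary mice (the control group) were set against mice made to run on a treadmill for 40 minutes at 70% of their capacity, over 1 day (24 h), 1 week or 2 weeks. Each of the 4 groups had 4 libraries, 16 in all. No transgene or drug was given to any group, as far as the labels say. No label says that the 4 libraries of a group are 4 animals, and a p-value here covers only library-to-library spread, some of which may be technical. Titles of sedentary libraries carry one unexplained letter and titles of exercised libraries another, and its meaning and running cannot be told apart. Whether the 24 h mice ran within a day or were killed 24 h after a run is not clear from the labels.

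The kidney cortex is, with the liver, the main site where glucose is made from lactate, glutamine and glycerol, and this takes place in the proximal tubule. Pyruvate carboxylase and the cytosolic phosphoenolpyruvate carboxykinase start the path, fructose-1,6-bisphosphatase drives its middle step, and glucose-6-phosphatase releases free glucose inside the endoplasmic reticulum. Glutamine broken down for glucose also yields ammonium, which the kidney uses to excrete acid, so both paths share enzymes. PCK1 and G6PC are known in liver as genes that fasting hormones raise and insulin lowers. In the kidney Pck1 is also known to respond to acidosis.

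Library totals ran from 39766260 to 66852397 counts, and the lowest count of any of the 8 genes in any library was 3998, for Slc2a2. Levels are given in CPM, the count of a gene relative to its library's total after TMM scaling. The 14 proximal tubule markers summed to 28742 to 33552 CPM in sedentary libraries, 27954 to 30865 at 24 h, 29374 to 32641 at 1 wk and 28500 to 35391 at 2 wk, so the tubule segment that holds these enzymes was strongly represented in every group. At 24 h all 14 of these markers had a negative log2 fold change (median -0.15), and none had an unadjusted p under 0.05. The share of counts from mitochondrially encoded genes was 3.61 to 4.52% in sedentary libraries and 2.16 to 2.71% at 24 h, with no overlap, against 2.66 to 4.09% at 1 wk and 2.99 to 4.23% at 2 wk. Erythroid markers (5 globin and heme genes) summed to 336 to 593 CPM in sedentary libraries and 677 to 1631 CPM at 2 wk, without overlap, and 5 of 5 had an unadjusted p under 0.05 there. All 5 were higher, and 4.02% of all genes were higher with such a p at 2 wk. Endothelial markers (6 genes) summed to 183 to 222 CPM in sedentary libraries and 142 to 174 CPM at 1 wk, also without overlap, and 6 of 6 were lower with an unadjusted p under 0.05 there. Over all genes tested, 600 of 16126 were lower with such a p at 1 wk. Immune cell markers (6 genes) summed to 32.2 ± 3.67 CPM (SD) in sedentary libraries and 24.2 ± 1.81 CPM at 2 wk, where the highest was 26.7 CPM, without overlap, and all 6 had a negative log2 fold change at 1 wk and 2 wk (medians -0.40 and -0.41). Summed hepatocyte markers (6 genes) overlapped between sedentary libraries (1981 to 2322 CPM) and exercised ones (1740 to 3020 CPM), though the albumin gene Alb was at 10.4 to 11.3 CPM in sedentary libraries and 5.66 to 8.38 CPM at 24 h. Of the 6, Alb was lower and Fgb higher at 24 h with an unadjusted p under 0.05, as 8.92% of all genes had. In all, 4 of the 6 had a negative log2 fold change there and 2 a positive one. The part of any of these in the results was not tested. In bulk tissue, fewer cells of a type and less RNA per cell cannot be told apart.

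Pck1 and G6pc, which encode the carboxykinase and the last enzyme of the path, were the members with the most variable levels, and their promoters are shown for that reason. Pck1 (ENSMUSG00000027513) lies on chromosome 2 at 173153048 to 173159273 on the plus strand, and G6pc (ENSMUSG00000078650) on chromosome 11 at 101367561 to 101377903 on the plus strand, both in GRCm38. The stretches below are RefSeq sequence (GRCm38.p6) that ends at the base before the GENCODE start of each gene, 5′ to 3′ on the plus strand. Capitals mark letters that match the motifs searched.
Pck1, chr2:173152823-173153047: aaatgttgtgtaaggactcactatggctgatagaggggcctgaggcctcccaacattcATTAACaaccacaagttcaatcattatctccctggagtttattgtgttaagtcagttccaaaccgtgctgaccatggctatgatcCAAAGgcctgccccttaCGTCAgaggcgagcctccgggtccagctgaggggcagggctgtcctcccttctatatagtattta
G6pc, chr11:101367466-101367560: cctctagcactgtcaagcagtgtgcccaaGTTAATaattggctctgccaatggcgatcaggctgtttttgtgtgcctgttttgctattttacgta

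Both stretches hold the letters of an HNF1 half-site (GTTAAT, either strand). It was also in the Khk window, and in 6.43% of all 32851 RefSeq promoter windows of 250 bases. The CRE half-site (TGACG, either strand), bound by cAMP-responsive factors, was in the windows of Pck1, Slc37a4 and Khk and in 17.8% of all windows. An HNF4 half-site (CAAAG, either strand) was in the windows of 6 members, and in 48.6% of all windows. For each motif a member was counted if any of its windows matched (11 windows for 8 members), while the percentages are per single window. The FOXO letters TGTTTAC (3.17% of windows) and the glucocorticoid half-site AGAACA (16.1%) were in no member's window. No 2 of these motifs overlapped in the stretches printed. A match describes letters only, and no binding was measured. An absence covers only the exact letters given, since variants of these sites were not searched.

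Across the 16 libraries Pck1 and G6pc varied far more than the other members. Their coefficients of variation were 25.4% and 25.3%, each above that of 97.3% of the 3409 genes at 50 CPM or more, whose median was 10.3%. Fbp1 (4.65%) and Glud1 (5.09%) were at the other end, above only 3.31% and 5.02% of those genes. Slc37a4 (6.65%), Khk (9.39%), Pcx (9.67%) and Slc2a2 (14.3%) lay between.

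**Figure D1:**
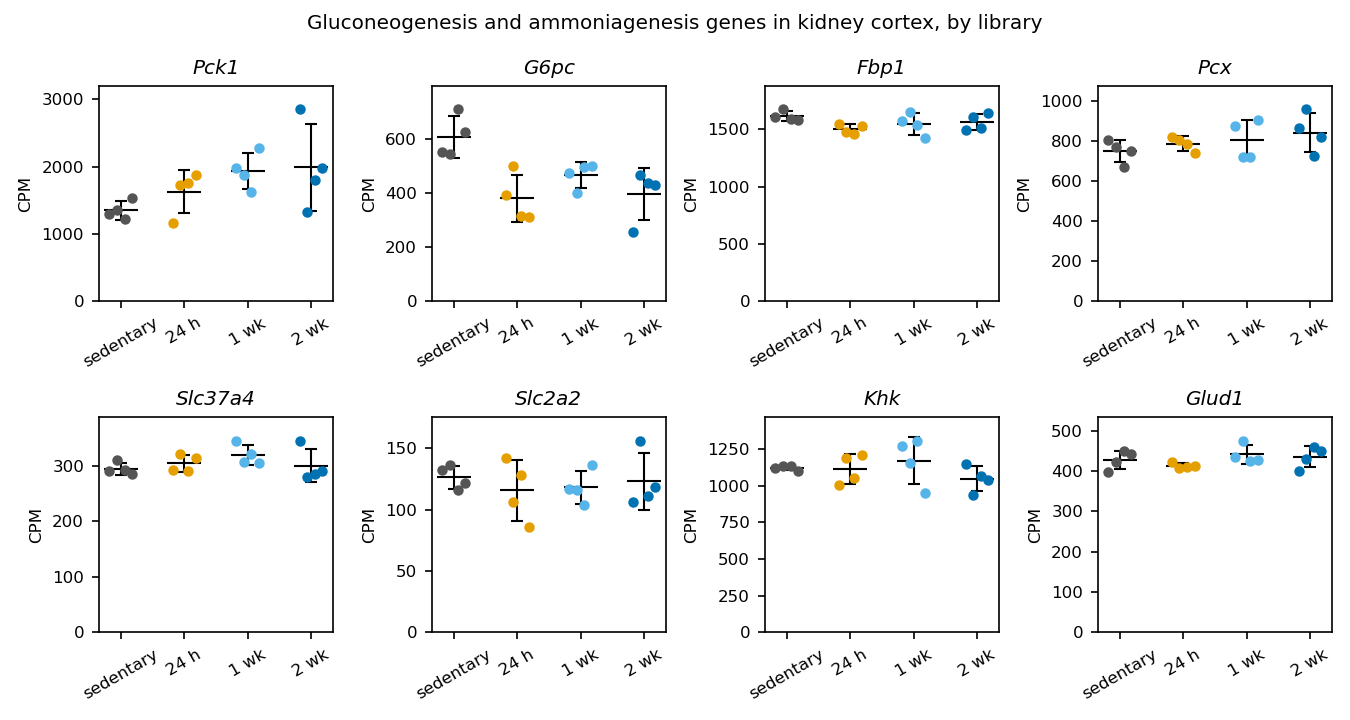
Level of each of the 8 genes (y axis, CPM, TMM-scaled, from 0) in each of the 16 libraries (points) by group (x axis), with bars for the group mean and SD. G6pc is lower in all 12 exercised libraries than in the 4 sedentary ones, and Pck1 is above all sedentary libraries in 10 of 12. Of the other 6 genes Slc2a2 has the widest spread, from 86 to 156 CPM.

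G6pc, the catalytic subunit that frees glucose from glucose-6-phosphate, had the clearest difference. Its level was 553, 544, 712 and 628 CPM in the sedentary libraries and 393, 501, 316 and 312 CPM at 24 h. It was 475, 399, 498 and 501 CPM at 1 wk and 255, 468, 437 and 429 CPM at 2 wk. Every exercised library was below every sedentary one, 12 of 12, and this held in each of the 3 comparisons, which share the sedentary libraries. Over all genes tested, 0.118% (19 of 16126) were lower without overlap in all 12 exercised libraries, and 3.66%, 2.51% and 2.61% at 24 h, 1 wk and 2 wk on their own.

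In edgeR's robust quasi-likelihood test the log2 fold change of G6pc was -0.68 ± 0.17 (SE) at 24 h (95% interval -1.04 to -0.32, adjusted p = 0.202, rank 63 of 16126 by p). At 1 wk it was -0.38 ± 0.17 (interval -0.74 to -0.03, edgeR adjusted p = 0.796). At 2 wk it was -0.62 ± 0.17 (interval -0.97 to -0.26, rank 81, edgeR adjusted p = 0.357). With all exercised libraries against sedentary it was -0.56 ± 0.13 (interval -0.84 to -0.28, edgeR adjusted p = 0.31, rank 28). None passed the adjusted threshold of 0.05, and 0 of 16126 genes (0%) did in any of the 4 comparisons, against 8.92%, 6.05%, 7.26% and 7.97% with an unadjusted p under 0.05. DESeq2 called G6pc at 24 h (log2 fold change -0.67, adjusted p = 0.0334) and in the test of any group difference, and limma's voom with quality weights called it over all exercised (-0.54, adjusted p = 0.0446). Of all 16126 genes, DESeq2 called 86 and 163 in those 2 tests, and voom called 52 over all exercised. Over the alternatives tried, the log2 fold change at 24 h ran from -0.84 to -0.59 with adjusted p from 0.0334 to 0.646, and over all exercised from -0.61 to -0.47 with adjusted p from 0.0446 to 0.949.

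Pck1, the cytosolic enzyme that makes phosphoenolpyruvate and a main control point of the path, was at 1289, 1351, 1213 and 1533 CPM in sedentary libraries. It was at 1161, 1727, 1751 and 1874 CPM at 24 h, at 1972, 1880, 1628 and 2277 CPM at 1 wk, and at 2856, 1317, 1793 and 1979 CPM at 2 wk. The libraries at 1 wk were all above the sedentary ones, as were 3 of 4 at 24 h and 3 of 4 at 2 wk. That made 10 of 12 exercised libraries above all sedentary ones and 1 below. At 1 wk, 1.71% of all genes tested were higher without overlap.

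The log2 fold change of Pck1 was 0.27 ± 0.18 at 24 h (edgeR adjusted p = 0.691), 0.53 ± 0.18 at 1 wk (interval 0.14 to 0.91, edgeR adjusted p = 0.658) and 0.56 ± 0.18 at 2 wk (interval 0.18 to 0.95, edgeR adjusted p = 0.429). Over all exercised it was 0.45 ± 0.15 (edgeR adjusted p = 0.481). None of these passed correction. The value at 2 wk rests in part on library 1 of that group, which had both the highest Pck1 (2856 CPM) and the lowest G6pc (255 CPM) of all 16. Without it the log2 fold change at 2 wk was 0.33 ± 0.16 for Pck1 (edgeR adjusted p = 0.91) and -0.45 ± 0.15 for G6pc (edgeR adjusted p = 0.798). Over all exercised, without it, the values were 0.38 and -0.50. Between 2 wk and 24 h Pck1 was then at 0.06, and between 2 wk and 1 wk at -0.19.

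That library also stood apart in adipocyte markers. Adipoq, which encodes adiponectin, had 108 counts there against 0 to 12 in the other 15 libraries, Plin1 had 41 against 0 to 6, and Cidec had 90 against 14 to 35. Lep, the leptin gene, had 8 against 0 to 2. Fabp4 (1576 counts, others 1194 to 2584) and Plin4 (45, others 20 to 63) were within the range of the rest. Over the 6 markers the summed level was 33.2 to 46.8 CPM in sedentary libraries and 18.6 to 45.3 CPM at 2 wk, but Fabp4 made up most of it (38.2 CPM in 2 wk library 1). Fat cells also express Pck1, and the part of such RNA in the value of that library was not tested.

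**Figure D2:**
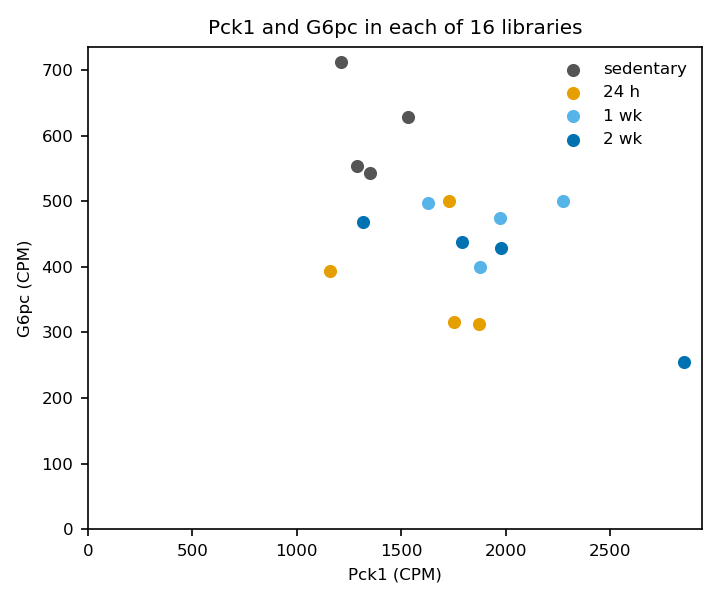
Level of G6pc (y axis, CPM) against Pck1 (x axis, CPM) in the 16 libraries, coloured by group. The 4 sedentary libraries sit at the upper left, with G6pc from 544 to 712 CPM, and 2 wk library 1 lies at the far lower right.

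Per length of exon, the ratio of Pck1 to G6pc was 1.20 to 1.75 in the sedentary libraries. It was 2.08 to 4.22 at 24 h, 2.30 to 3.32 at 1 wk and 1.98 to 7.89 at 2 wk, with a median of 3.06 over the 12 exercised libraries. The ratio joins the members with the largest differences in opposite directions, and G6pc alone already separated these libraries, so the ratio adds no separate result.

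Between the 3 durations no difference of either gene passed the test. For Pck1 the log2 fold change was 0.25 between 1 wk and 24 h, 0.29 between 2 wk and 24 h and 0.03 between 2 wk and 1 wk, with edgeR adjusted p of 0.893, 0.627 and 0.98. For G6pc it was 0.30, 0.06 and -0.24, with edgeR adjusted p of 0.785, 0.916 and 0.868. Leaving out 1 library moved these values by more than 1.5 times. For Pck1 they ran from 0.12 (without 24 h library 1) to 0.33, from 0.06 (without 2 wk library 1) to 0.43 and from -0.19 (without 2 wk library 1) to 0.18. For G6pc they ran from 0.22 to 0.46 (without 24 h library 2), from -0.03 (without 2 wk library 2) to 0.23 and from -0.33 to -0.07 (without 2 wk library 1). No member had an unadjusted p under 0.05 between durations, where 7.15%, 9.61% and 4.58% of all genes did. Glud1 was higher at 1 wk than at 24 h without overlap, as 1.07% of genes were.

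The transporter Slc37a4 moves glucose-6-phosphate into the endoplasmic reticulum, where G6pc acts, and so forms one system with it. It (ENSMUSG00000032114) lies on chromosome 9 at 44396852 to 44402968, plus strand. Its level was 289, 310, 292 and 286 CPM in sedentary libraries, 292, 322, 291 and 313 CPM at 24 h, 344, 307, 320 and 305 CPM at 1 wk, and 345, 280, 285 and 290 CPM at 2 wk. Groups overlapped at every duration. The log2 fold change ranged from 0.03 to 0.12 over the 3 durations, and the lowest edgeR adjusted p of the 6 members other than Pck1 and G6pc was 0.721 over these comparisons. The 345 CPM of 2 wk library 1 is apart from the other 3 of its group.

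Fbp1, the fructose-1,6-bisphosphatase of kidney and liver, was the most abundant member per length. The gene (ENSMUSG00000069805) lies on chromosome 13 at 62864753 to 62888282, minus strand. It was at 1612, 1679, 1596 and 1582 CPM in sedentary libraries and 1551, 1481, 1462 and 1532 CPM at 24 h. The 4 libraries at 24 h were below all sedentary ones, as 3.66% of genes were, by a small margin: the log2 fold change was -0.10 ± 0.07 with an edgeR adjusted p of 0.721. Levels at 1 wk (1573, 1657, 1541 and 1424 CPM) and 2 wk (1497, 1607, 1517 and 1646 CPM) overlapped with sedentary. In all, 9 of 12 exercised libraries were below all sedentary ones and 0 were above.

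Pcx, the mitochondrial pyruvate carboxylase that feeds the path with oxaloacetate, averaged 749 ± 56.6 CPM (SD, n = 4) in sedentary libraries. The gene (ENSMUSG00000024892) spans chromosome 19 from 4510472 to 4621752, plus strand. Its level averaged 787 ± 35.6 at 24 h, 806 ± 98.7 at 1 wk and 842 ± 97.0 at 2 wk, and 6 of 12 exercised libraries were above all sedentary ones. The largest log2 fold change was 0.17 at 2 wk, and none had an unadjusted p under 0.05. Its locus overlaps Lrfn4 on the other strand (2.26 CPM), and the strand setting of the counting is not given here, so reads of the pair could be mixed.

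Slc2a2 encodes the basolateral glucose carrier GLUT2, by which proximal tubule cells pass glucose to the blood, from chromosome 3 at 28697903 to 28731359, plus strand (ENSMUSG00000027690). It averaged 127 ± 9.48 CPM in sedentary libraries, 116 ± 24.6 at 24 h, 118 ± 13.5 at 1 wk and 123 ± 22.9 at 2 wk. Levels at 24 h ran from 86 to 142 CPM and at 2 wk from 106 to 156 CPM, so the spread was wider than the difference between group means. An antisense gene overlaps it, at 0.694 CPM.

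Khk, ketohexokinase, phosphorylates fructose in proximal tubule cells and lies on chromosome 5 at 30921431 to 30931248, plus strand (ENSMUSG00000029162). It averaged 1121 ± 16.8 CPM in sedentary libraries, 1112 ± 102 at 24 h, 1169 ± 162 at 1 wk and 1048 ± 87.8 at 2 wk. Group means lay within 1048 to 1169 CPM, while the 4 sedentary libraries lay within 1097 to 1134 CPM and the 12 exercised ones ran from 936 to 1306 CPM. Of these, 6 were above and 6 below all sedentary libraries.

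Glud1, glutamate dehydrogenase, releases ammonium from glutamate in mitochondria and hands on alpha-ketoglutarate for glucose production. It lies on chromosome 14 at 34310727 to 34345265, plus strand (ENSMUSG00000021794). Its level averaged 428 ± 22.8 CPM in sedentary libraries, 413 ± 6.99 at 24 h, 441 ± 23.4 at 1 wk and 435 ± 26.2 at 2 wk. Only 3 of 12 exercised libraries were above all sedentary ones and 0 were below.

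For these 6 genes together the log2 fold change ran from -0.13 to 0.07 at 24 h, from -0.10 to 0.12 at 1 wk and from -0.10 to 0.17 at 2 wk, and the lowest edgeR adjusted p was 0.721, 0.92 and 0.725. Over the 8 members the median log2 fold change was -0.03, 0.05 and -0.01, and that of all genes tested was near 0. Of the 8, 1 at 24 h, 2 at 1 wk and 2 at 2 wk had an unadjusted p under 0.05, where 8.92%, 6.05% and 7.26% of all genes did. Each of these members was Pck1 or G6pc. Over the 4 groups at once, the same 2 genes had an unadjusted p under 0.05, with edgeR adjusted p of 0.486 for Pck1 and 0.335 for G6pc, where 8.73% of all genes had such an unadjusted p and 2 of 16126 (0.0124%) passed correction.

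**Figure D3:**
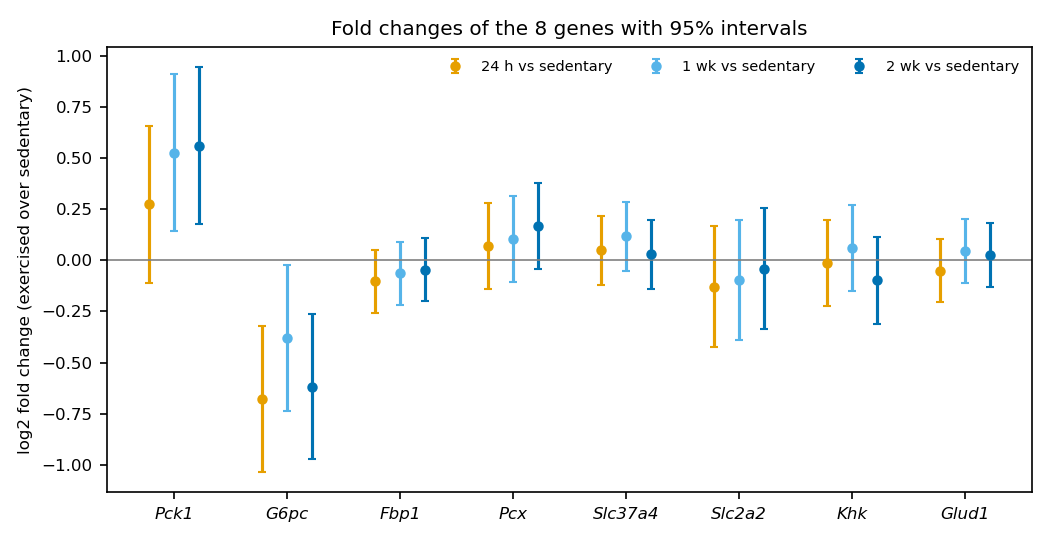
Log2 fold change against sedentary (y axis) of each of the 8 genes (x axis) at 24 h, 1 wk and 2 wk (colours), with 95% intervals as bars. Before correction over 16126 genes, the intervals of G6pc lie below 0 at all 3 durations and those of Pck1 above 0 at 1 wk and 2 wk, and those of the other 6 genes span 0.

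Compared per kilobase of exon, the order of the levels over all 16 libraries was Fbp1 at 916 CPM per kilobase (837 to 986), Khk at 619 (521 to 727), Pck1 at 503 (339 to 833), G6pc at 192 (106 to 295), Pcx at 167 (141 to 202), Slc37a4 at 107 (98.0 to 121), Glud1 at 102 (94.6 to 113) and Slc2a2, the lowest, at 14.9 to 27.2. The ranges of Khk and Pck1 overlapped, as did those of Slc37a4 and Glud1, and G6pc overlapped Pcx, Slc37a4 and Glud1. The order of G6pc and Pcx differed between groups. G6pc was above Pcx without overlap in sedentary libraries (means 252 and 158 CPM per kilobase), and its mean was above that of Pcx at 1 wk (194 and 170) and below it at 24 h (158 and 166) and 2 wk (164 and 177), with overlap each time. In sedentary libraries alone Khk (611 to 631) and Pck1 (354 to 447) did not overlap.

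Of the 28 pairs of members, 1 had an adjusted permutation p under 0.05 by Pearson r across the 16 libraries, and 2 by Spearman rho. Slc2a2 and Khk had a Pearson r of -0.724 (permutation p = 0.00152, adjusted p = 0.0426) and a Spearman rho of -0.788 (permutation p = 0.00045, adjusted p = 0.0126). Without the 2 libraries farthest from the median of Slc2a2, r was -0.656, and after removing group means it was -0.804. Slc37a4 and Khk had r = 0.671 (permutation p = 0.00454, adjusted p = 0.0636) and rho = 0.735 (adjusted permutation p = 0.0223), with r = 0.672 without 2 libraries. Without TMM scaling r was 0.512 for this pair (adjusted permutation p = 0.167) and -0.725 for Slc2a2 and Khk (adjusted permutation p = 0.0426). Pck1 and G6pc had r = -0.594 (permutation p = 0.015, adjusted p = 0.105) and rho = -0.462 (permutation p = 0.0726, adjusted p = 0.339), with r = -0.556 without 2 libraries. For this pair r was -0.568 after removing group means and -0.375 in the 12 exercised libraries alone. Of the 28 values of r, 14 were negative. The genes of 1 library share its depth and its piece of cortex.

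**Figure D4:**
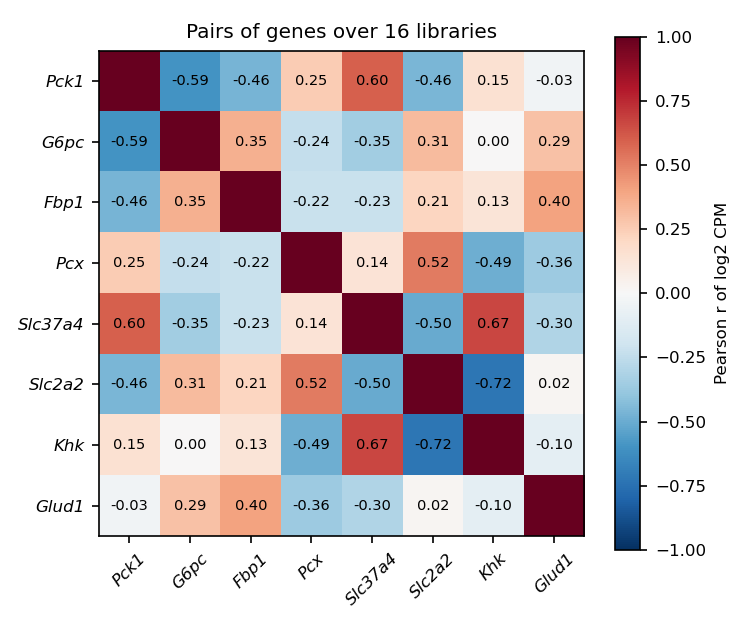
Pearson r of log2 CPM over 16 libraries for each of the 28 pairs of the 8 genes (both axes list the genes, the colour gives r). The strongest negative cell is Slc2a2 with Khk at -0.724.

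The genes with the most similar pattern over the 16 libraries, of 11915 looked at, are given by Pearson r as a description. For Pck1 these were Inpp5j (0.843), Crybg2 (0.815) and Alkbh4 (0.805), and for G6pc Rbm34 (0.864), Lrrc19 (0.855) and Tfap4 (0.851). Fbp1 was most like Xrcc4 (0.79), Adgrg4 (0.786) and Klhdc9 (0.781), and Glud1 most like Pip5k1a (0.8), Zfp85 (0.786) and Thumpd2 (0.762). The closest matches of the other 4 were stronger. Pcx had Larp1 (0.96), Dennd1a (0.943) and Trak1 (0.941), Khk had Tmem205 (0.94), Ttc36 (0.939) and Sod1 (0.938), Slc2a2 had Slc22a23 (0.908), Otud1 (0.907) and Mfsd1 (0.876), and Slc37a4 had Syngr2 (0.89), Borcs5 (0.881) and Pfdn2 (0.874).

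In the 5 other lists of the pathway, 0 genes were called against sedentary by edgeR. Of 18 other genes of gluconeogenic and reversible glycolytic steps, 13, 16 and 13 had a positive log2 fold change at the successive durations, with medians of 0.07, 0.08 and 0.01. At 24 h, 2 had an unadjusted p under 0.05, where 8.92% of all genes did. These were Eno1, an enolase, at 543 against 455 CPM (log2 fold change 0.25), and Fbp2, the muscle-type bisphosphatase, at 25.6 against 20.9 CPM (0.29). At 1 wk the first by p were Pck2, the mitochondrial carboxykinase (0.20), and Ldhb, a lactate dehydrogenase (0.15).

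Among 16 genes of glutamine entry, ammonia formation and ammonia transport, 8, 12 and 13 had a positive log2 fold change at the 3 durations, with medians of -0.00, 0.10 and 0.19. At 2 wk 6 had an unadjusted p under 0.05, all higher, where 4.02% of all genes were: Rhcg, Rhbg, Gpt2, Got1, Slc38a3 and Got2. Rhcg, the ammonia channel of the collecting duct, was at 120 against 91.5 CPM (log2 fold change 0.39, edgeR adjusted p = 0.374), and Rhbg, its basolateral counterpart, at 20.1 against 14.7 CPM (0.45, edgeR adjusted p = 0.422). At 24 h Got1, the cytosolic aspartate aminotransferase, was at 122 against 98.8 CPM (0.30, edgeR adjusted p = 0.308) and the amino acid carrier Slc7a9 at 107 against 129 CPM (-0.27). Collecting duct markers (6 genes) summed to 430 to 695 CPM at 2 wk against 400.2 to 505 CPM in sedentary libraries, and 2 of the 6 had an unadjusted p under 0.05, both higher; their part in the Rhcg and Rhbg values was not tested.

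Of 8 genes of fructose and polyol metabolism, Slc2a5, the fructose carrier, was at 91.7 against 121 CPM at 24 h (log2 fold change -0.40, edgeR adjusted p = 0.394) and the urate and fructose carrier Slc2a9 at 14.2 against 17.5 CPM (-0.30). At 2 wk Slc2a9 was on the other side of sedentary (log2 fold change 0.27, edgeR adjusted p = 0.685). Akr1b3, the aldose reductase, was at 40.8 against 49.5 CPM at 2 wk (-0.28). Of 13 glycolytic genes tested, Pfkp, a phosphofructokinase, was at 50.5 against 36.3 CPM at 24 h (log2 fold change 0.48 ± 0.10, edgeR adjusted p = 0.162). DESeq2 and voom each called 1 gene of that list at 24 h, where they called 86 and 59 of all 16126 genes.

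Of 19 regulators of gluconeogenic transcription tested, 2, 4 and 1 had an unadjusted p under 0.05 at the 3 durations, where 8.92%, 6.05% and 7.26% of all genes did. Tat, listed with them, is an enzyme gene rather than a regulator and was not tested. At 24 h Nr0b2, a nuclear receptor corepressor, was at 2.54 against 1.82 CPM (log2 fold change 0.48) and the glucocorticoid receptor gene Nr3c1 at 41.2 against 53.2 CPM (-0.37). At 1 wk Irs2, an insulin receptor substrate, averaged 43.6 ± 38.5 against 16.3 ± 4.26 CPM (1.42, edgeR adjusted p = 0.658), an SD close to the mean. At 2 wk Irs1 was at 7.08 against 5.63 CPM (0.33).

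**Figure D5:**
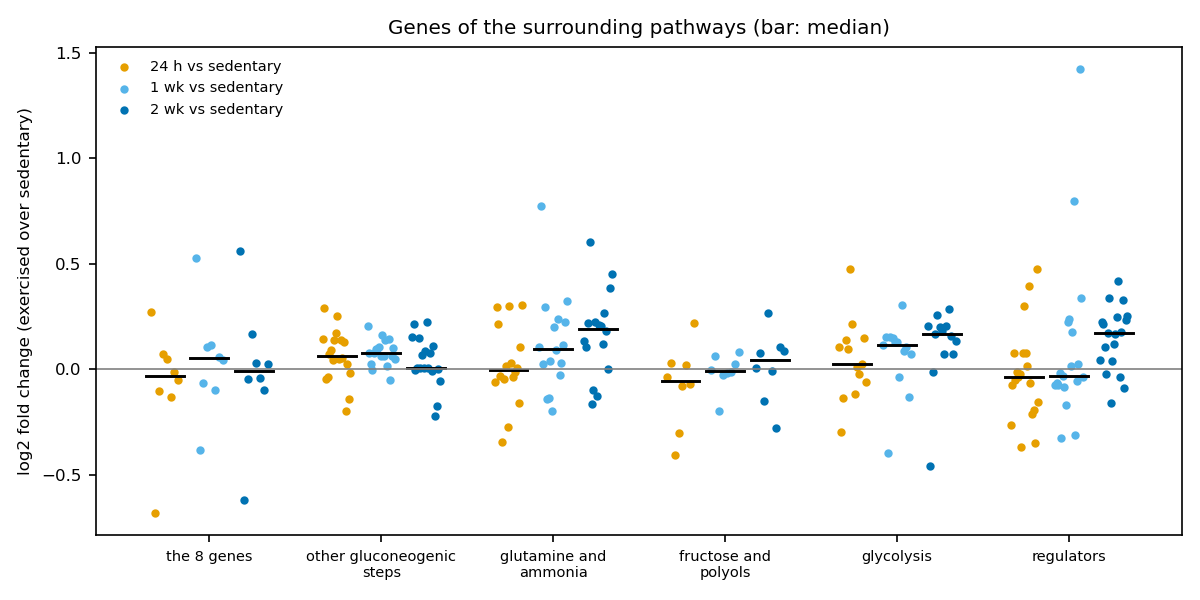
Log2 fold change against sedentary (y axis) of each tested gene of the 8 genes and the 5 other lists (x axis) at 24 h, 1 wk and 2 wk (colours), with the list median as a black bar. List medians lie between -0.05 and 0.19, and no gene in any list passed correction by edgeR.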

How the data were processed

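The deposited values are raw counts per gene, whole numbers with no normalization, made by the authors with HTSeq 0.10.0 on GRCm38 (mm10) after FastQC 0.10.1, per the submitters' processing notes. Aligner, annotation release and strand setting were not given in the sources used here. Per the labels' protocols, the library preparation used a spin-column RNA kit and the TruSeq Stranded mRNA kit. Of the 24 columns, 16 matched a sample and 8 did not and were left out.

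Groups came from titles and treatment labels. Tests across genes used edgeR 4.0.16 (R 4.3.3) with filterByExpr by group, TMM scaling, the robust quasi-likelihood F-test with all 16 libraries in 1 fit, Benjamini-Hochberg adjustment over 16126 genes and a threshold of 0.05. DESeq2 1.42.0, limma 3.58.1 (voom with quality weights), other scalings and filters, a replicate block, the compared groups alone and leaving out each library were alternatives. Fits were tested on simulated data. Values after ± are SD for CPM and SE for log2 fold changes, and the median SE over all genes was 0.144. Every pair of replicates differed by more than counting noise (lowest chi-square per degree of freedom 7.88). Pair correlations used log2 CPM with prior count 2 and 100000 permutations. Promoters are RefSeq GRCm38.p6 and gene positions GENCODE M21.

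The members, lists and tests were chosen with earlier results of these data known. The text names the 8 members, the 2 genes of smallest p or any called in each other list where it is described, and the 3 genes most like each member. Gpt2, Slc38a3 and Got2, beside their count, were named outside that rule after their values were seen. Some genes of the lists are counted but not reported by name here.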

Additional observations from a re-analysis of the deposited data

Results flagged for a closer look

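Slc37a4 in 2 wk library 1 was at 345 CPM, far above the other 3 libraries of its group, which lay between 280 and 290 CPM. This was 1 of 32 groups of 4 libraries looked at (8 genes in 4 groups), and chance alone flags about 1 group in 20. The same library had the highest Pck1 and the lowest G6pc of all 16. Whether the values of the 3 genes in it have a common source was not tested.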

How the results depend on the processing

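Against sedentary, G6pc was lower and Pck1 higher under every alternative run, and edgeR called 0 members. Members called came to 1 at 24 h and 1 in the test of any group difference by DESeq2, and to 1 over all exercised by voom, where edgeR gave 0, each time G6pc. Over all 16126 genes these 3 tests called 86, 163 and 52. The cause was not tested. Differences near 0 changed sign. Khk at 24 h was -0.012 and became 0.00998 with library totals only and 0.0103 by voom, and over all exercised it became 0.0016 by voom. Leaving out 1 library gave ranges of -0.051 to 0.035 (Khk, 24 h), -0.035 to 0.0135 (Khk, all exercised), -0.044 to 0.060 (Slc37a4, 2 wk), -0.18 to 0.025 (Slc2a2, 2 wk), -0.00694 to 0.064 (Glud1, 2 wk), -0.026 to 0.034 (Glud1, all exercised), -0.029 to 0.23 (G6pc, 2 wk vs 24 h) and -0.19 to 0.18 (Pck1, 2 wk vs 1 wk). Calls over all genes depended on tool, fit and filter: at 24 h edgeR gave 0 as reported, 28 with only the groups compared, 9 with no low-count filter and 2 with library totals only, DESeq2 86 and voom 59, and at 2 wk edgeR gave 0, DESeq2 34 and voom 7. Of 24 pairs of same-numbered libraries, 8 had deviations correlated over 0.1 (mean r 0.0566, range -0.239 to 0.375, against a mean of -0.0188 for different numbers), so the numbers were not taken as pairing. With the replicate block 0 members were called in any comparison. Over all genes it called 5 at 2 wk against sedentary, 11 between 2 wk and 24 h and 5 in the test of any group difference. The main fit called 0, 2 and 2 there. With 4 libraries a group, changes well under the interval widths given are not detectable.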
